A study of Mus musculus with 378 samples.

Results

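AP-1 is a family of transcription factors built from 2 protein chains, and its Fos and Jun genes are read here in single T cells from mouse tumours. Members were chosen by name, 7 of the 23420 genes measured: Fos, Fosb and Fosl2 encode Fos-type chains, Jun, Junb and Jund encode Jun-type chains, and Atf3 encodes a related stress-induced factor that can pair with Jun proteins. All 7 were found in the expression table. T cells were sequenced by Smart-seq2, which copies whole transcripts to cDNA. They came from B16F10 melanoma, a transplanted mouse tumour, in C57BL/6 mice, either wild type (WT) or labelled Il27ra KO, a knockout of a receptor chain for the cytokine IL-27. The question of the study is the signature that IL-27 leaves in tumour T cells. There are 374 single-cell libraries (94 of WT and 92 of KO CD8 cells, 94 of WT and 94 of KO CD4 cells) and 4 population libraries, 1 for each of the 4 groups. Values in sets of 4 below are for CD8 cells, WT then KO, and after them for CD4 cells, WT then KO. No age, sex, treatment or animal is named, so a group counts as 1 sample whatever its number of cells, and no test between groups was possible.

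Fos and Jun proteins each carry a basic region that touches DNA and a leucine zipper through which they pair. Jun proteins can pair with each other or with Fos proteins, while Fos proteins need a partner such as a Jun protein. In T cells, signals from the antigen receptor reach Fos and Jun through MAP kinases, and AP-1 then acts with NFAT at cytokine genes. Fos, Fosb, Jun, Junb and Atf3 are immediate early genes, whose RNA appears within minutes of a stimulus and is short-lived, whereas Jund is commonly read at a steadier level. Cutting up and warming a tissue to free its cells is a known stimulus for the same genes.

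The 250 bases upstream of the RefSeq start of Fos, Fosb, Jun and Junb are shown. Of the other members, Fosb, Junb and Jun had the highest mean rank correlations with Fos over the 4 groups (0.39, 0.34 and 0.26). Within single groups these ran from 0.08 to 0.51, as given later. The bases are those of the GRCm38.p6 build, 5′ to 3′ on the strand of the gene, and capitals mark each match to TGACG (the core of a CREB and ATF site), CCAAT or TATAA on that strand.
Fos, chr12:85473640-85473889, plus strand: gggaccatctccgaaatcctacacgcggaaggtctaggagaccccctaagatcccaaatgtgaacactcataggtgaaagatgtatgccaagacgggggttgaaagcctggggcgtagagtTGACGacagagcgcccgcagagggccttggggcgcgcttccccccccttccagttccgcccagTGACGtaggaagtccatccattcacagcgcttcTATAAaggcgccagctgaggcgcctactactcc
Fosb, chr7:19310046-19310295, minus strand: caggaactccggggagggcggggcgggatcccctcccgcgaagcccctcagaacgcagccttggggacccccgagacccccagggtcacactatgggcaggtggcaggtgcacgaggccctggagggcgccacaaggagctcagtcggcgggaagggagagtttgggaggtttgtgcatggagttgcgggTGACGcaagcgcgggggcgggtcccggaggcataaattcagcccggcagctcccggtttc
Jun, chr4:95052223-95052472, minus strand: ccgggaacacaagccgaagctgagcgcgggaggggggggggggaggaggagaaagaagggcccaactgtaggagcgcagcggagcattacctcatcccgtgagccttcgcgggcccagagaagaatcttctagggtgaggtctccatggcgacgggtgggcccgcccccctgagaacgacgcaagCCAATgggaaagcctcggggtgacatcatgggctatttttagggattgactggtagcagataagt
Junb, chr8:84978749-84978998, minus strand: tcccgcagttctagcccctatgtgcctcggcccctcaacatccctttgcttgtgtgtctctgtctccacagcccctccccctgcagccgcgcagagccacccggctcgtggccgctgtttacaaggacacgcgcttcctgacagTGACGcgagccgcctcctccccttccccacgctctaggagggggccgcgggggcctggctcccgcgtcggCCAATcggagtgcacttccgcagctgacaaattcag
Fos held 2 matches to TGACG and 1 to TATAA, the latter 33 to 29 bases before the start. Fosb held 1 TGACG, Junb held 1 TGACG and 1 CCAAT, and Jun held 1 CCAAT. In the same window Atf3 had 1 TGACG on the opposite strand, and Fosl2 and Jund had none of these letters. On either strand, TGACG was found in 17.8%, TATAA in 22.8% and CCAAT in 33.8% of 32851 RefSeq promoters of equal length. The full CREB site TGACGTCA, the AP-1 site TGACTCA and the CArG box, where serum response factor binds, had no match in any of the 7 windows, and were found in 1.55%, 4.46% and 1.47% of all promoters. Only these 250 bases were searched, so a site further upstream, in Fos or another member, would not be seen. A match of letters is a description and not a bound site.

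In GENCODE M21 on GRCm38, Fos lies on chromosome 12 at 85473890 to 85477273, Fosb on chromosome 7 at 19302696 to 19310051 and Fosl2 on chromosome 5 at 32135801 to 32157842. Jun lies on chromosome 4 at 95049034 to 95052222 and Atf3 on chromosome 1 at 191170296 to 191218039. Junb (84974484 to 84978718) and Jund (70698949 to 70700616) are both on chromosome 8, which also holds Il27ra at 84030294 to 84042589. Junb is 0.932 Mb from Il27ra and Jund 13.3 Mb. Exons of Junb overlap those of Prdx2 on the opposite strand, and exons of Jun and Jund overlap the antisense genes Junos and Gm11175, so without strand the reads of each pair cannot be told apart there. The main transcripts of Jund and Junb are 67.1% and 62.6% G or C, higher than 99.7% and 98.5% of protein-coding main transcripts.

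Single cells were kept where 1000 or more genes were above 0 FPKM, namely 67 WT and 74 KO CD8 cells and 79 WT and 78 KO CD4 cells. They held medians of 2919, 2797, 2307 and 2650.5 genes. FPKM, a read density per transcript length and library size, hides the read depth, so the number of genes found stands in for it. Cd8a was above 0 in 83.6% and 94.6% of WT and KO CD8 cells and in 7.59% and 7.69% of CD4 cells. For Cd4 the shares were 8.96% and 2.70% of CD8 and 79.7% and 89.7% of CD4 cells. Those for Cd8b1, which encodes the second CD8 chain, were 82.1% and 81.1% of CD8 and 24.1% and 33.3% of CD4 cells. The protocol text names CD8+ cells alone, so the CD4 label has its support in the titles and in Cd4 RNA. Il27ra was not lower in single cells labelled KO (38.8% of WT and 52.7% of KO CD8 cells, 48.1% of WT and 52.6% of KO CD4 cells), so every direction below follows the label alone. Across the 4 population libraries it was 47.6, 90.8, 255.97 and 95.2 FPKM, so there the CD4 value was lower with the KO label. The WT CD4 titles hold p3 where the others hold p2, a part of the title that goes with that group. B2m, a gene of nearly every nucleated cell, was at 0 in 8 WT CD8 and 6 WT CD4 cells and in 0 cells of either KO group. At least 1 of B2m, Actb, Gapdh, Eef1a1 and Rplp0 was at 0 in 12 WT and 2 KO CD8 cells and in 12 WT and 4 KO CD4 cells. Values without those cells are given for some KO minus WT differences, their counts and their medians. Shares of cells, counts of members per cell and gene list values below include those cells.

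By mean log2 in CD8 single cells, Junb, Fos and Fosl2 had the 3 largest differences with the genotype label. In CD8 cells labelled Il27ra KO, these 3 genes were found in more cells and at higher means than in WT CD8 cells, and Jun was higher too. In CD4 cells Fos and Fosl2 were higher with the same label, by smaller amounts of mean log2. For Fos this depended on the measure, since its ratio of mean FPKM was 2.90 in CD8 and 2.87 in CD4. Once cells rich in markers of other cell types were left out, the CD4 differences were 0.81 for Fos and 0.89 for Fosl2. WT CD8 was the lowest of the 4 groups for 6 of the 7 members. Jund was lower in single cells labelled KO in both cell types. The order of the members depended on the measure, since by the ratio of mean FPKM and in the population libraries Fosb and Atf3 differed more than Fos in CD8.

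**Figure D1:**
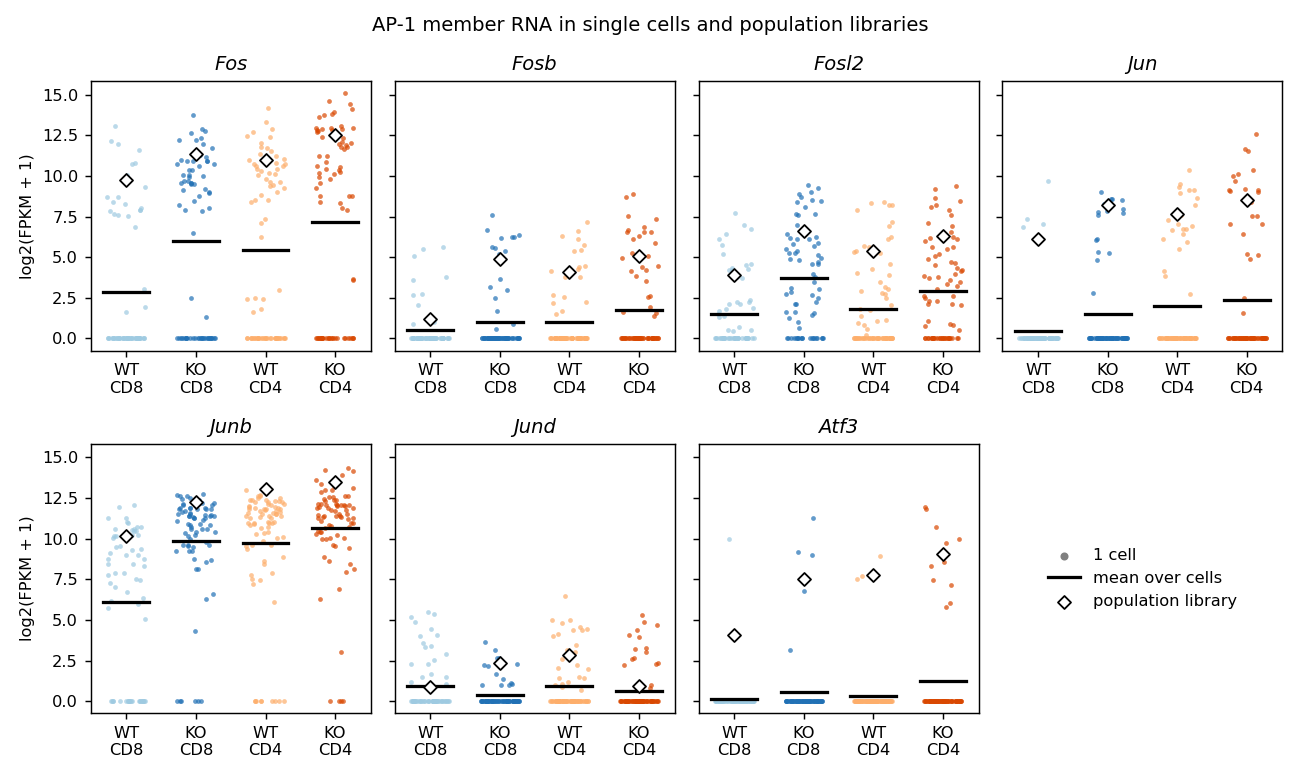
Values of the 7 members in each kept single cell (points, log2(FPKM + 1)) by group, with the mean and the population library of the group marked. Junb is far above 0 in most cells of each group, Fos is split between cells at 0 and cells at high values, and Jund stays low everywhere.

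Fos, an immediate early gene whose protein needs a Jun-type partner, ran from 0 to 8745 FPKM in WT CD8 cells with a median of 0. In KO CD8 cells it ran from 0 to 13543 with a median of 389, in WT CD4 cells from 0 to 18552.5 with a median of 73.5, and in KO CD4 cells from 0 to 34768 with a median of 825. The cells of all 4 groups overlapped across the whole lower range, since each group had cells at 0. The share of CD8 cells with Fos above 0 was 34.3% in WT (exact 95% interval 23.2 to 46.9%) and 60.8% in KO (48.8 to 71.96%). The WT and KO shares in CD4 cells were 58.2% (46.6 to 69.2%) and 64.1% (52.4 to 74.7%). These and later intervals are Clopper-Pearson and cover counting error only. How many of all genes had intervals apart was not counted, so intervals apart describe the member alone. The CD8 intervals did not overlap, and the CD4 intervals did.

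On the log2(FPKM + 1) scale, Fos averaged 2.86 ± 4.34 in WT CD8 (SD over cells, n = 67) and 6.01 ± 5.18 in KO CD8 (n = 74), 3.15 higher with the KO label. In CD4 cells it averaged 5.45 ± 5.24 in WT (n = 79) and 7.19 ± 5.75 in KO (n = 78), 1.74 higher. Part of this was the share of cells and part the level in cells that had Fos: among those, the median was 311.04 FPKM in WT and 1055 in KO CD8 cells, and 1209 in WT and 3463 in KO CD4 cells. Mean FPKM was 2.90 times as high in KO as in WT CD8 cells and 2.87 times as high in KO as in WT CD4 cells. A difference of mean logs can exceed the log of such a ratio where many cells are at 0. In cells with all 5 of the quality genes named above, the Fos difference was 2.74 in CD8 and 1.63 in CD4. Without cells holding 3 or more macrophage, class II or dendritic cell markers it was 2.96 in CD8 and 0.81 in CD4.

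Fosb, a close relative of Fos, was scarce. It was above 0 in 14.9% of WT and 22.97% of KO CD8 cells and in 24.1% of WT and 34.6% of KO CD4 cells, and the intervals of the groups compared overlapped. Its highest values were 47.5, 190, 142.7 and 468 FPKM in the 4 groups, well under those of Fos on this per-length scale. The differences of mean log2 were 0.54 in CD8 and 0.72 in CD4 cells, under the 1 log2 unit used here to call a difference of mean logs. With most cells at 0, mean FPKM moved further, 4.40 times as high in KO as in WT CD8 cells and 3.36 times as high in KO as in WT CD4 cells.

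Fosl2, which encodes FRA-2, is known to last longer after a stimulus than Fos. It was above 0 in 44.8% of WT CD8 cells (32.6 to 57.4%) and 72.97% of KO CD8 cells (61.4 to 82.6%), intervals that did not overlap. The WT and KO CD4 shares were 44.3% (33.1 to 55.9%) and 62.8% (51.1 to 73.5%). Highest values were 211.4, 692, 334.7 and 655 FPKM in the 4 groups, over medians of 0, 11.5, 0 and 4.33. Mean log2(FPKM + 1) was 1.52 ± 2.21 in WT and 3.73 ± 3.11 in KO CD8 cells, a difference of 2.21, and 1.82 ± 2.65 and 2.90 ± 2.93 in WT and KO CD4 cells, a difference of 1.07. In cells with all 5 of the quality genes, the Fosl2 difference was 1.84 in CD8 and 0.88 in CD4. Fosl2 was the 1 member whose highest group was KO CD8 and not KO CD4 or WT CD4.

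Junb, the Jun-type gene with the most RNA here, ran from 0 to 4281 FPKM in WT CD8 cells with a median of 231.02. In KO CD8 cells the highest value was 6948 and the median 2026, in WT CD4 cells 8070 and 2485, and in KO CD4 cells 20980 and 2752. Each group again had cells at 0, and WT CD8 had the most of them. The share of CD8 cells with Junb was 67.2% in WT (54.6 to 78.15%) and 91.9% in KO (83.2 to 96.97%). For CD4 cells, WT gave 88.6% (79.5 to 94.7%) and KO 94.9% (87.4 to 98.6%). The WT CD8 interval lay below those of KO CD8 and of WT CD4.

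Mean log2(FPKM + 1) of Junb was 6.12 ± 4.55 in WT CD8 (SD over cells, n = 67) and 9.86 ± 3.32 in KO CD8 (n = 74). The difference of 3.74 was the fourth highest of 9031 genes with values above 0 in 10% or more of the cells of 1 of the 2 groups, and Fos stood at place 10. In CD4 cells Junb was 9.73 ± 3.79 in WT and 10.67 ± 3.09 in KO, a difference of 0.94. The WT cells short of B2m or other quality genes bear on both values: with all 5 quality genes required, the Junb difference was 2.76 in CD8 and 0.28 in CD4. Their part in the result was not tested further. Mean FPKM of Junb was 3.50 times as high in KO as in WT CD8 cells and 1.56 times as high in KO as in WT CD4 cells.

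Jun, the founding member of its type, was found in 4 of 67 WT CD8 cells (5.97%, 1.65 to 14.6%) and 16 of 74 KO CD8 cells (21.6%, 12.9 to 32.7%). In CD4 cells it was found in 27.8% of WT (18.4 to 39.1%) and 29.5% of KO (19.7 to 40.9%). Cells that had Jun had much of it, with medians of 147.3, 217.5, 127.5 and 510 FPKM among them in the 4 groups. The KO minus WT difference of mean log2 was 1.05 in CD8 and 0.38 in CD4 cells. In WT CD8 a single cell held 66.8% of all Jun FPKM of the group.

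Jund, usually the steadiest Jun gene, was low in every group. Its highest single-cell values were 44.6, 11.5, 86.2 and 38.6 FPKM in the 4 groups. It was above 0 in 28.4% and 18.9% of WT and KO CD8 cells and in 31.6% and 20.5% of WT and KO CD4 cells, with overlapping intervals throughout. Differences of mean log2 were -0.54 in CD8 and -0.29 in CD4 cells, KO minus WT. Mean FPKM of Jund in KO was 0.177 times that in WT CD8 cells and 0.571 times that in WT CD4 cells. The high G and C content of the Jund transcript given above stands beside these low values, and its part in them was not tested.

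Atf3 was the rarest member. It was found in 1 WT and 5 KO CD8 cells (1.49% and 6.76%) and in 3 WT and 11 KO CD4 cells (3.797% and 14.1%), with highest values of 993, 2463, 492 and 3872 FPKM. Its differences, 0.38 in CD8 and 0.94 in CD4 cells, rest on these few cells. It was too rare in CD8 cells to be among the 9031 genes, and by mean FPKM it was 13.95 times as high in KO as in WT CD4 cells.

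**Figure D2:**
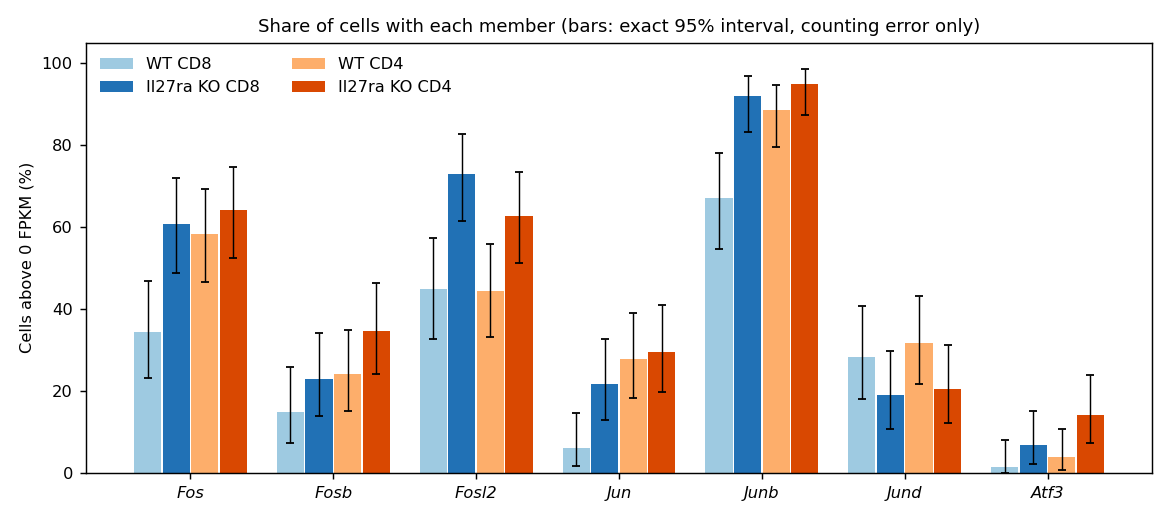
Share of kept cells above 0 FPKM for each member and group, with exact 95% intervals (counting error only). The Fos, Fosl2 and Junb intervals of WT CD8 lie below those of KO CD8, and for Atf3 no share passes 14.1%. How many of all genes have intervals apart was not counted.

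Counted against all genes, 4 of 7 members (Junb, Fos, Fosl2 and Jun) were higher in KO CD8 cells by 1 or more on the log2 scale, where 5.94% of 9031 genes were. None was lower by 1 or more, against 3.82% of genes. By the log2 ratio of mean FPKM + 1 over cells, 6 of 7 were higher by 1 or more, against 12.8% of genes, and Jund (-1.53) was lower by as much, against 12.1%. The 6 include Atf3, which was too rare to be among the 9031 genes. The median of the 7 differences was 1.05, and the median over all genes -0.08. In CD4 cells 2 of 7 members (Fos and Fosl2) were higher in KO by 1 or more, against 7.73% of 8176 genes, and none was lower by as much, against 0.342%. The median of the 7 was 0.94, and that over all genes 0.17. By the log2 ratio of mean FPKM + 1, 4 of 7 (Fos, Fosb, Jun and Atf3) were higher in KO CD4 cells by 1 or more, against 16.7% of genes. By the difference of mean logs, the Jun, Junb, Fosb and Atf3 values in CD4 cells did not reach the size used for a call. With all 5 quality genes required in a cell, 3 of 7 members were past that size in CD8, with Jun at 0.995, against 1.86% of genes. Under the same filter 1 of 7 (Fos) was past it in CD4, with Fosl2 at 0.88, against 5.97% of genes. The median of the 7 was then 0.53 in CD4. Each genotype contrast rests on 1 sample a side, so these counts describe these libraries.

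**Figure D3:**
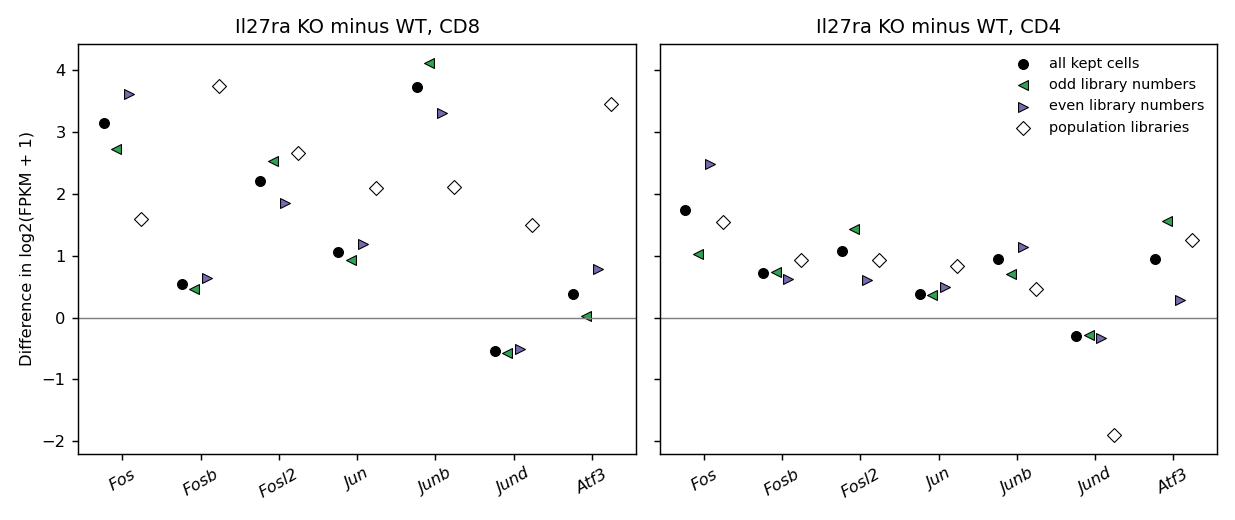
KO minus WT difference of mean log2(FPKM + 1) for each member in CD8 and in CD4 cells, over all kept cells and within odd and even library numbers. Open diamonds are the population libraries. Over all kept cells Junb (3.74) and Fos (3.15) lie highest in CD8 and Fos (1.74) in CD4, and Jund lies below 0 in both.

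Odd and even library numbers, the number after S in the titles, split each group into 2 parts whose meaning the labels do not give. In CD8 cells the KO minus WT difference of Junb was 4.13 in odd and 3.30 in even numbers. Fos gave 2.73 and 3.61, Fosl2 2.54 and 1.86, and Jun 0.93 and 1.18. All 7 members kept their sign in both parts. In CD4 cells they also kept it, but the sizes were further apart: Fos was 1.03 higher in odd and 2.48 higher in even numbers, Fosl2 1.43 and 0.61, and Atf3 1.56 and 0.29. Within a group the parts differed most for Fos in WT CD8 cells, where odd numbers averaged 3.52 and even numbers 2.14, and for Fosl2 in WT CD4 cells (1.40 and 2.35) and Junb in KO CD8 cells (10.30 and 9.37). Odd and even counts of cells were 35 and 32, 39 and 35, 44 and 35, and 36 and 42 in the 4 groups.

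Members were lower in CD8 than in CD4 cells with few exceptions. By mean log2 in WT cells all 7 members were lower in CD8 than in CD4, 3 of them (Junb -3.60, Fos -2.59 and Jun -1.52) by 1 or more, against 2.08% of 8961 genes. Jund differed by -0.04 alone. Atf3, found in 1 WT CD8 and 3 WT CD4 cells, was too rare to be among those genes. By mean FPKM Atf3 was 1.33 times as high in WT CD8 as in WT CD4 cells. The median of the 7 was -0.53, and that over all genes 0.33. In cells labelled KO, 1 of 7 (Fos, -1.17) was lower in CD8 by 1 or more, against 2.79% of 8473 genes, and Fosl2 was 0.83 higher in CD8. The median was -0.72, and over all genes 0.10. By the log2 ratio of mean FPKM + 1, CD8 was lower by 1 or more for 5 of 7 members in WT, against 11.3% of genes, and for 5 of 7 in KO, against 12.6%. Whether the CD8 and CD4 contrasts differ between genotypes was not tested. The WT CD8 cells enter both the genotype and the cell type contrast, so their low values are counted in both. In order of mean, KO CD4 was the highest group for 5 of 7 members, and 0 of 21 steps between neighbouring groups exceeded the smaller of the SDs over cells. That SD is the spread of cells and not the error of a group mean, so this count cannot decide whether groups differ. It was not made over all genes. The share intervals of neighbours lay apart in 1 case, Junb in WT CD8 and WT CD4, with no count over all genes to set beside it.

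The population libraries are 1 value per group and hold 11134 to 12035 genes. Across the 4 groups in turn, Fos was 851, 2583, 2037 and 5963 FPKM, and Junb 1131, 4912, 8331 and 11472. Jun was 68.9, 299.1, 203.1 and 362, and Fosl2 14.3, 96.1, 40.8 and 78.4. Fosb was 1.26, 29.2, 16.3 and 32.1, and Atf3 15.7, 183.2, 218.9 and 526. These 6 genes had their lowest value in WT CD8, as in the single cells. Jund stayed under 6.2 FPKM in all 4, with 0.83, 4.19, 6.11 and 0.90.

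Between the CD8 population libraries, 7 of 7 members were higher in KO by 1 or more on the log2 scale, against 15.5% of genes, with a median of 2.12. Atf3 is counted there, though it was too rare in CD8 single cells to be among those genes. Jund was 1.504 higher there, opposite in sign to the single cells. Between the CD4 ones, 2 of 7 (Fos and Atf3) were higher in KO by 1 or more, against 9.89% of genes, and Jund was lower by as much (-1.90), against 14.8%. The WT CD8 value was lower than that of WT CD4 by 1 or more for 7 of 7 members, against 20.3% of genes, and Atf3 was again not among those genes. Between the KO libraries, CD8 minus CD4 was -1.52 for Atf3, -1.22 for Junb and -1.21 for Fos, while Jund was 1.45, a difference that 14.2% of genes reached in that direction. The median of the 7 was -0.27 there. RNA of other cells differed too: the summed FPKM of 7 melanoma markers was 14658, 45.9, 85.7 and 37.5 in the 4 groups, and none of the 7 was at 0 in WT CD8. That of 5 class II antigen presentation markers was 192.3, 18669, 6397 and 4332, with none at 0 in any library. That of 12 macrophage and monocyte markers was 4187, 10410, 4432 and 6640, with 6, 4, 0 and 3 markers at 0. Their part in the population values was not tested. In bulk libraries, fewer cells with a gene and less RNA per cell cannot be told apart.

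Among single cells, 3 or more macrophage, class II or dendritic cell markers were above 0 in 16 WT and 27 KO CD8 cells and in 12 WT and 11 KO CD4 cells. Summed class II FPKM ran from 0 to 185457, 125517, 1517 and 136958 in the 4 groups, each with a median of 0. Summed macrophage and monocyte FPKM had medians of 959, 3072, 0 and 0, from a list that holds Ly6c2, a gene CD8 T cells also express. Without those cells the CD8 differences were 4.02 for Junb, 2.96 for Fos, 2.24 for Fosl2 and 0.98 for Jun, so 3 of 7 members were past 1 log2 unit, against 7.81% of genes. In CD4 cells without them Fos was 0.81 and Fosl2 0.89, and no member reached 1, against 6.47% of genes.

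Cells held several members at once. The median was 2 members above 0 in WT CD8 and 3 in each other group. At least 4 members were found in 11 WT CD8 cells (16.4%, 8.49 to 27.5%) and 25 KO CD8 cells (33.8%, 23.2 to 45.7%). The same held for 28 WT CD4 cells (35.4%, 25.0 to 47.01%) and 31 KO CD4 cells (39.7%, 28.8 to 51.5%). No member was found in 14 WT and 5 KO CD8 cells and in 7 WT and 2 KO CD4 cells. Only 1 cell, in KO CD4, held all 7.

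**Figure D4:**
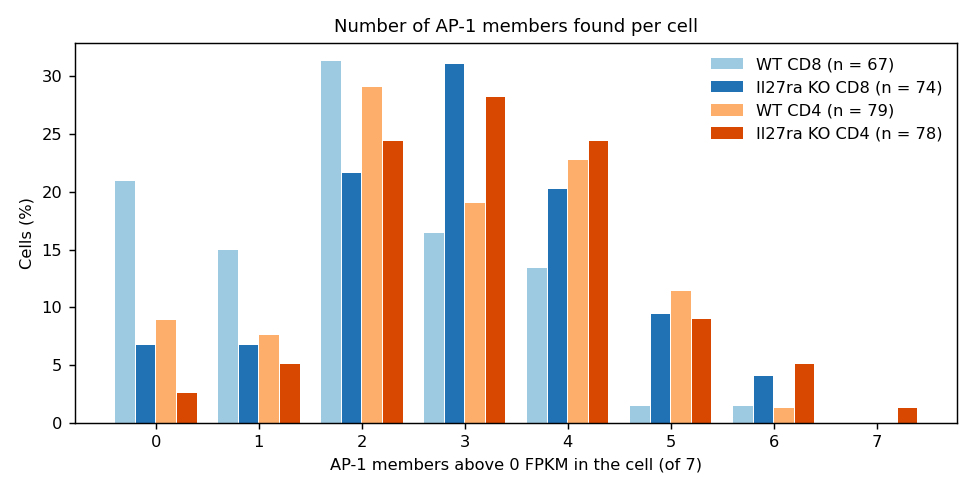
Number of the 7 members above 0 FPKM per cell, as the share of kept cells in each group. WT CD8 has the most cells with none (14 of 67), and cells with 4 or more are 16.4% there and 33.8% to 39.7% elsewhere.

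Junb was the leading member by FPKM in most cells that had any: 39 of 53 WT and 53 of 69 KO CD8 cells, and 54 of 72 WT and 48 of 76 KO CD4 cells. Fos led in 9, 14, 16 and 24 of them, and no other member led in more than 3 cells of a group. A Fos-type and a Jun-type chain, each summed over its 3 genes and above 10 FPKM, were present together in 40.3% of WT and 78.4% of KO CD8 cells, and in 59.5% of WT and 82.1% of KO CD4 cells. Jun-type RNA without Fos-type RNA at that level was seen in 18, 11, 23 and 10 cells, and the reverse in 3, 0, 2 and 1. RNA of both chains in a cell does not show that the proteins paired.

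Averaged over the 4 groups, the rank correlation of Fos over cells was highest with Fosb and Junb, but not within each group. Spearman's rho of Fos with Fosb was 0.18 in 67 WT and 0.48 in 74 KO CD8 cells, and 0.37 in 79 WT and 0.51 in 78 KO CD4 cells. Of the cells with Fosb, 5 of 10, 16 of 17, 15 of 19 and 23 of 27 in the 4 groups also had Fos. Fos with Junb gave 0.47, 0.32, 0.08 and 0.48 in the same order, and Fos was found without Junb in 3, 0, 1 and 0 cells. Fos with Jun gave 0.30, 0.24, 0.33 and 0.17, above Fos with Fosb in WT CD8 and above Fos with Junb in WT CD4 cells. Fos with Atf3 gave 0.25, 0.08, 0.20 and 0.02.

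Fosl2 followed Junb in CD8 cells (0.41 in WT and 0.42 in KO) more than in CD4 cells (0.08 and 0.21). Fosl2 with Fos gave low values (0.17, 0.05, 0.00 and 0.06), though in WT CD8 cells Fos with Fosb was near that too (0.18). Fosb with Junb gave 0.12, 0.33, 0.03 and 0.49. Of the 21 pairs, the mean rho over groups ran from 0.01 for Fosb with Fosl2 to 0.39 for Fos with Fosb. Cells of a group share their sample and differ in the number of genes found, so these are descriptions. Given the number of genes per cell, the partial rho of Fos with Fosb averaged 0.37 and that of Fos with Junb 0.33. In odd and even numbers apart, Fos with Fosb was 0.50 and 0.51 in KO CD4 cells, while Fosl2 with Junb was 0.39 and -0.25 in WT CD4 cells.

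**Figure D5:**
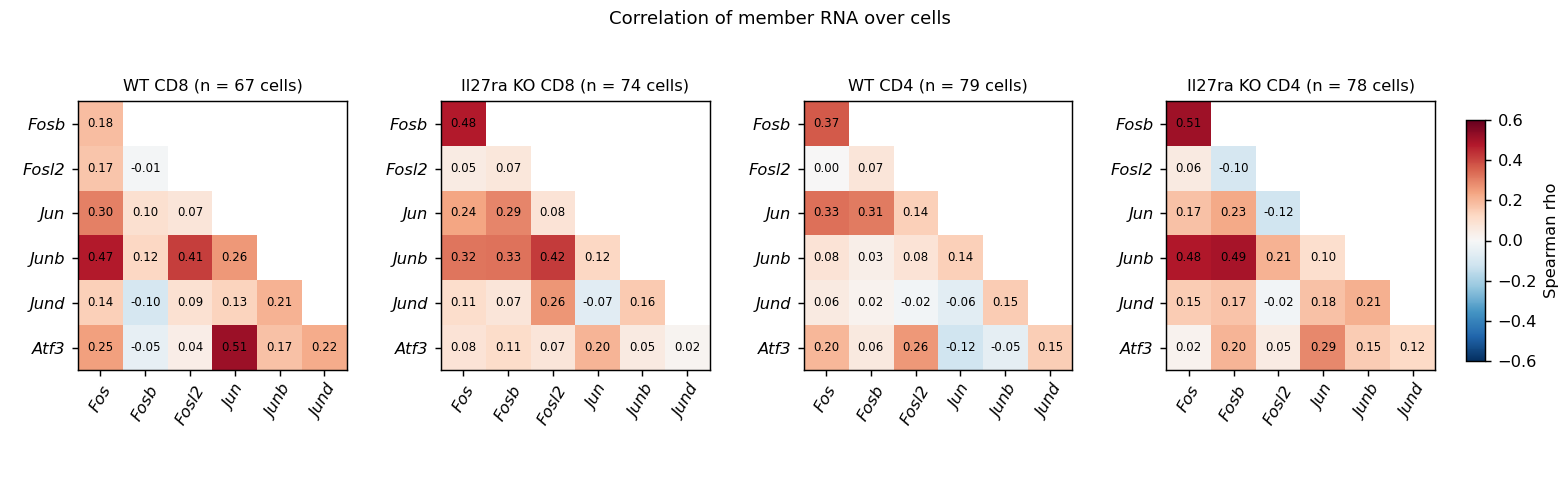
Spearman's rho of log2(FPKM + 1) over cells for the 21 pairs of members in each of the 4 groups. Fos with Fosb and Fos with Junb are the highest on average, and Fos with Fosl2 lies at or under 0.17 in each group.

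Among 3609 other genes above 0 in 20% or more of the cells in every group, the most alike by mean rho over the 4 groups were mainly early response genes for Fos and Junb. For Junb they were Btg2 (0.47), a brake on proliferation, Ier2 (0.45), an immediate early gene, and Nr4a1 (0.45), an orphan receptor switched on by antigen receptor signals. For Fos they were Nr4a1 (0.38), Tagap (0.36) and Dusp1 (0.32), a phosphatase that shuts off MAP kinases. For Fosl2 they were Vps37b (0.35), Nr4a1 (0.26) and Ifngr1 (0.26), a chain of the interferon gamma receptor. The other members had weaker likes: Ap2m1 (0.28), Tagap (0.28) and Tufm (0.25) for Fosb, Rgs10, Cst3 and Rpl10 (0.25 each) for Jun, S100a10 (0.28), Crip1 (0.25) and Ctla4 (0.25) for Jund, and Adipor2 (0.27), Rnh1 (0.26) and Tcf20 (0.25) for Atf3. The median rho with all 3609 genes was 0.03 to 0.06 for the 7 members.

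Jund went with Foxp3, the factor that marks regulatory T cells, in WT CD4 cells. This split was chosen after values were seen. How many of all genes divide by Foxp3 in this way was not counted, so it is not shown to be particular to Jund. Jund was above 0 in 19 of 30 WT CD4 cells with Foxp3 (63.3%, 43.9 to 80.1%) and 6 of 49 without it (12.2%, 4.63 to 24.8%). Among odd numbers these were 12 of 22 and 2 of 22, and among even numbers 7 of 8 and 4 of 27. In cells labelled KO the shares were 10 of 39 (25.6%, 13.04 to 42.1%) and 6 of 39 (15.4%, 5.86 to 30.5%), with overlapping intervals. There, odd numbers gave 5 of 18 and 1 of 18, and even numbers 5 of 21 and 5 of 21. In WT CD4 cells mean log2 was 1.78 higher with Foxp3 than without for Jund, 1.69 higher for Fos and 0.81 higher for Junb, and in KO CD4 cells these values were 0.65, -1.58 and -1.80. WT CD4 cells with Foxp3 also had more genes, a median of 2822 against 2119. With at least 2000 genes required, the WT shares were 17 of 28 and 5 of 32.

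Other immediate early genes were mostly higher with the KO label too, in a list of 27. In CD8 cells 18 of 26 detected genes were higher, 14 of them by 1 or more, with a median of 1.09. Ppp1r15a, a stress response gene (3.78), and Nfkbia, which encodes an inhibitor of NF-kB (3.47), led, and Dusp2 (-1.03) and Nr4a2 (-0.91) were lowest. In CD4 cells 24 of 24 were higher, 15 by 1 or more, with a median of 1.28, from 0.23 for Tnfaip3 to 3.64 for Ier2. Over all genes, 5.94% were higher by 1 or more in CD8 cells (median -0.08) and 7.73% in CD4 cells (median 0.17). In each cell the mean of the 7 members went with the mean of the immediate early list, with rho of 0.71, 0.55, 0.54 and 0.63. Given the number of genes per cell, this rho was 0.62, 0.53, 0.50 and 0.63 in the 4 groups. With a list of 10 heat shock genes raised by tissue handling it was 0.45, 0.19, 0.28 and 0.04, and 0.17, 0.04, 0.21 and 0.02 given the number of genes per cell. Of that list, Hspa1a and Hspa1b were under 10% of cells in both groups of each contrast and are left out of the next counts. Heat shock genes were higher with the KO label in 7 of 8 (CD8, median 0.56) and 8 of 8 (CD4, median 0.83) detected genes. In the population libraries 4 of 8 (CD8, median -0.20) and 1 of 8 (CD4, median -0.18) were higher, and the part of these genes in the member values was not tested. The 5 quality genes were higher with the KO label as well, 5 of 5 in each cell type, with medians of 1.803 in CD8 and 0.80 in CD4.

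Genes upstream of AP-1 had lower medians than the members in both cell types. Of 22 MAP kinase pathway genes 20 were detected in CD8 cells, 15 of them lower with the KO label, with a median of -0.38, Map2k1 (1.07) at the top and Map2k2 (-1.08) at the bottom. In the CD8 population libraries 12 of the 20 were higher, with a median of 0.20. In CD4 cells 12 of 17 were higher, with a median of 0.31, led by Map2k2 (1.82). The serum response and CREB factors that act at the Fos promoter were lower in 9 of 10 in CD8 (median -0.21) and higher in 8 of 9 in CD4 (median 0.20), and none passed 1 log2 unit either way. Their population medians were 0.02 and -0.25. NFAT factors and their regulators had medians of -0.18 in CD8 and 0.31 in CD4, and of 0.06 and -0.54 in the population libraries.

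Other AP-1 and related factors were divided. Of 23 genes, 14 were detected in CD8 cells, 7 higher and 7 lower with a median of -0.01. Crem, which encodes an inducible member of the CREB family, was 1.47 higher with the KO label, Nfe2l2 0.63 higher, Maf -1.10 and Batf, a partner of Jun proteins in T cells, -0.47. In CD4 cells 14 of 17 were higher, with a median of 0.28, and Crem and Atf4 were both at 1.92. T cell genes bound by AP-1 or dependent on it had a median of -0.52 in CD8 cells, where 9 of 14 were lower, from Pdcd1 (-3.92) and Havcr2 (-3.21), both inhibitory receptors, to Icos (1.16), a costimulatory receptor. In the CD8 population libraries 8 of the 14 were higher, with a median of 0.20, and Pdcd1 was -0.51. In CD4 cells 10 of 12 were higher, with a median of 0.55, and Gzmb (1.52), a granzyme, led. These counts cover list genes that reached 10% of the cells of 1 of the 2 groups compared. Beside these lists and those above, the KO minus WT medians over all genes were -0.08 in CD8 and 0.17 in CD4 single cells. In the population libraries they were 0.04 and -0.09.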

How the data were processed

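Per the submitters' processing notes, the authors used Bowtie and RSEM with mm10, with no versions given. Their gene annotation is one the sources used here do not give. The deposited values are FPKM, which the authors normalized with TMM, per the labels. FPKM corrects for transcript length and library size, so the read depth of a library is unknown here and no interval from it is given. Cells were amplified over PCR cycles and no molecular identifiers are described. The intervals on shares of cells cover counting error only, and leave out missed RNA, amplification and variation between animals.

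Groups come from the titles, and 0 columns were left unmapped. Single cells needed 1000 or more genes above 0. No doublet caller was run. For each gene the mean of log2(FPKM + 1) over cells was taken, and groups were compared by the difference of these means, with no test because there is 1 sample per group. It understates the change of low genes and mixes the share of cells with the level in them. The background is every gene above 0 in 10% or more of the cells on 1 side of a contrast. A difference of at least 1 either way was called. Named genes were the 7 members, the 2 highest and 2 lowest of each list, the 3 genes most alike each member, and Il27ra, Cd4, Cd8a and Cd8b1 as label checks. Hras and Adgre1 were matched under older symbols, and Ly6g was not matched. Some list genes that this rule names are not reported here. The members and lists were chosen with earlier results of these data known. Alternatives changed the pseudocount, the cell filters, the scaling, the measure, the library kind and the library numbers.

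Gene positions and transcripts came from GENCODE M21, and promoters from RefSeq (GRCm38.p6), with 7 of 7 members matched. The difference calculation was tested on simulated data. Software was Python 3.11.15 with numpy 2.4.6, pandas 2.3.3, scipy 1.17.1 and matplotlib 3.10.9.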

Additional observations from a re-analysis of the deposited data

Results flagged for a closer look

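Of the 76 single-cell libraries left out for holding under 1000 genes, 9 had Junb above 0 (11.8%). The exact interval was 5.56 to 21.3%, counting error only. These values lie outside the main measurement. How many of all genes reached such a share there was not counted, so it is not shown to be particular to Junb. By a limit of 3 counts, which is not the exact interval, a count of 0 would allow up to 3.95% (3 libraries of the 76). Of these 9 libraries, 5 were WT CD8, 2 WT CD4 and 2 KO CD4, and the highest value was 7142 FPKM. Fos was above 0 in 1 of the 76, Fosl2 in 3, Jund in 2, and Fosb, Jun and Atf3 in 0.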

How the results depend on the processing

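No paired analysis was possible because each library number is used once and names no animal. The median member difference kept its direction in all 4 contrasts under every alternative run. For KO minus WT in CD8 cells, 1.05 became 1.57 with a pseudocount of 0.1, 1.68 as the log2 ratio of mean FPKM + 1, and 2.12 in the population libraries. For KO minus WT in CD4 cells, 0.94 became 1.52 as that ratio. For CD8 minus CD4, -0.53 in WT became -1.41 as that ratio and -1.96 in the population libraries, and -0.72 in KO became -1.28 as that ratio. Only cells with all 5 quality genes, an alternative chosen after seeing the data, gave 1.00 in CD8 and 0.53 in CD4, and leaving out cells that lack B2m or Cd3 genes gave 0.56 in CD4. The cause of these shifts was not tested, and the measures differ by construction. All 7 members kept their sign for KO minus WT in every setting, except Jund in the CD8 population libraries. For CD8 minus CD4 in WT, 6 of 7 kept it without cells lacking B2m or Cd3 genes, 5 of 7 in odd numbers and 6 of 7 as the ratio. With 1 sample a group, no variation between animals can be given.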
